A study of Mus musculus with 12 samples.

Results

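Mouse podocytes that had recovered for 24 h from fluid flow shear stress (Post-24hr, 3 arrays) were compared with podocytes harvested as the shear stopped (End, 3 arrays). These 6 arrays were picked by their sample titles out of the 12 in the series, and the difference Post-24hr minus End was taken for all 14860 genes that the array annotation names by 1 symbol. Podocytes are the epithelial cells that wrap the filtering capillaries of the kidney. The cells were 1 conditionally immortalized line from the Immortomouse, carrying the tsA58 temperature-sensitive T antigen, so every array shares that background. They were grown at 33 °C with γ-interferon and differentiated at 37 °C without it. For every array the labels give 3 slides per dish and a medium change 24 h beforehand. On day 14, slides in the flow chamber received 2 dynes/cm2, a flow of 75 ml/min, for 2 h. End cells were collected then, and Post-24hr cells were put back into the medium they had come from and collected 24 h later. Recovery from flow, the return to that medium and 24 further hours in culture therefore cannot be told apart in this comparison. Another 3 sheared arrays, taken 2 h after shear (Post-2hr), lent their spread to the statistical fit and are quoted for the course of single genes. The 3 unsheared Control arrays do not enter the difference or the main fit. They lend their spread only to the alternative fits of all 12 arrays. Whether the 3 arrays of a group stand for separate cultures is not in the labels, and p-values here rest on the scatter among arrays, part or all of which may be technical.

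Flow over a podocyte is thought to act as a mechanical stimulus when more filtrate passes the capillary wall. In many cell types a mechanical or growth factor stimulus activates the ERK branch of MAP kinase signalling, which switches on immediate early transcription factors such as Fos, Jun and the Egr family within minutes. Those factors are short-lived, and slower feedback inhibitors, among them the Sprouty and Spred proteins and the dual-specificity phosphatases, hold the pathway back afterwards. FoxO transcription factors work in the opposite nutritional state. Growth factor signalling through PI3 kinase and AKT keeps them out of the nucleus, and its loss lets them drive genes of protein breakdown, fasting metabolism and cell death.

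The replicate 1 arrays stood apart from the rest, and no gene difference passed the test across all rows. Expression is on the log2 scale, so a difference of 1 is a doubling of signal. On the first principal component of the 9 sheared arrays, which held 41.06% of the variance, replicate 1 arrays lay between −47.5 and −29.21 and the others between 3.897 and 33.34. In the limma fit, 0 of 23332 rows were higher and 0 were lower in Post-24hr at an adjusted p under 0.05, which is 0% of rows. The lowest adjusted p was 0.215, and 600 rows higher and 745 rows lower had an unadjusted p under 0.05. Plain linear models with no moderation of the variance likewise called 0 rows, with 532 higher and 839 lower at an unadjusted p under 0.05. Among rows with no difference, a share of about 0.05 would also have an unadjusted p under 0.05, so these counts single out no genes. Below, 2 descriptions are therefore used, and each is set against its rate among all genes. In the first, all 3 Post-24hr arrays lay above or below all 3 End arrays, and the groups are then said to lie apart. This held for 492 genes upwards (3.31% of all genes) and 1274 downwards (8.57%), a split of 27.9% to 72.1%. The split depends on the rows counted, since over all 23332 rows, unnamed ones included, 1133 lay apart upwards and 1595 downwards, or 41.5% to 58.5%. In the second, the difference had one sign in each of the 3 same-numbered pairs, which held for 2091 genes upwards (14.1%) and 3506 downwards (23.6%).

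A small set of rows passed once all 12 arrays were fitted and replicate 1 was given its own level, and most of them read lower in recovered cells. That fit was an alternative added after the data were seen, and its spread came also from the 3 Control arrays. In it 12 rows passed (0.0514% of rows), 3 higher (0.0129%) and 9 lower (0.0386%). The 9 lower rows were Fbxo32, Bmf, Pik3ip1, Zbed5, Il4ra, Mxi1, Skida1, Mtus1 and Sox8. The 3 higher rows were Steap1 and 2 rows with no gene name here, 1 of which had the smallest p of all, at a difference of 1.25. Of the 16 measured genes of a list of FoxO-type starvation genes, Fbxo32 and Pik3ip1 were among those 9. Over that list, 9 members lay apart downwards (56.2%, against 8.57% of all genes) and 0 upwards, and 12 were lower in every pair (75%, against 23.6%) against 1 higher in every pair. The median difference was −0.31, against −0.02 over all genes. It was −0.51 within replicate 1 and −0.28 within replicates 2 and 3, and leaving out single arrays kept it between −0.38 and −0.27.

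The promoters of 2 of these genes are shown first because one holds the core letters that FoxO proteins are known to bind and the other, among the genes with the steadiest differences, does not. The windows are 300 bases around a RefSeq start, most of them upstream, on the plus strand of build GRCm38.p6, at chr2:128125788-128126087 for Bcl2l11 and chr11:3330481-3330780 for Pik3ip1. Capitals mark TGTTTAC or GTAAACA, the same motif read on either strand.
Bcl2l11: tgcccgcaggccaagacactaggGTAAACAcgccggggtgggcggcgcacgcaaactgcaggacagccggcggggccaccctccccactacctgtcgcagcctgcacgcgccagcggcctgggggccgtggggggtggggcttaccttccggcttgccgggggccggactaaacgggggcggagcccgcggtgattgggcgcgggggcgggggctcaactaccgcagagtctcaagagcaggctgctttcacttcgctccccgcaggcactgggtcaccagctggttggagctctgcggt
Pik3ip1: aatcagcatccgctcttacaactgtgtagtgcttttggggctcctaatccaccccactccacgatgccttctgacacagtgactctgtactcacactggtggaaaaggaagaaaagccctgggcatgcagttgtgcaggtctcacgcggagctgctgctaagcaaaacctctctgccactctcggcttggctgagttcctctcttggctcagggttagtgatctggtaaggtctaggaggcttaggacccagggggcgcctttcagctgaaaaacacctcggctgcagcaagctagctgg
Of 13 list members with a promoter in the RefSeq table, 2 held these letters in at least 1 window, Bcl2l11 and Txnip, against 3.65% of all 32851 windows and 3.56% of the 11894 measured genes with a window. Fbxo32, Foxo4 and Insr had no promoter there and were not searched. The second window of Bcl2l11 and the window of Pik3ip1 held none of the motifs searched.

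Fbxo32, the atrogin-1 subunit of a ubiquitin ligase that marks proteins for breakdown in wasting muscle, read 7.61, 7.61 and 7.49 in Post-24hr arrays 1 to 3, against 9.53, 8.79 and 8.86 in End arrays 1 to 3. The groups lie apart, and replicate 1 was the highest of the End arrays. The means were 7.57 ± 0.07 in Post-24hr and 9.06 ± 0.41 in End (SD, n = 3), a difference of −1.49 ± 0.21 (SE) or 2.81-fold. Its adjusted p in limma was 0.281 in the 9-array fit, 0.187 with the replicate number as a block and 0.0127 with 12 arrays and replicate 1 set apart.

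Bmf, a cell death protein of the BH3-only class that responds to detachment and starvation, was not on the list and was named by its small p in the replicate-block fit. It read 7.70, 7.77 and 8.32 in Post-24hr arrays against 9.50, 9.50 and 9.65 in End arrays. All 3 End arrays were close to each other and far above every Post-24hr array. The difference was −1.62 ± 0.20 (SE), a 3.07-fold difference, with a limma adjusted p of 0.215 in the 9-array fit and 0.0426 with 12 arrays and replicate 1 set apart. Bcl2l11, which encodes the related BH3-only protein Bim, read 8.63, 8.38 and 8.57 in Post-24hr arrays and 9.69, 8.87 and 8.99 in End arrays. The groups lie apart here too, with a difference of −0.66 ± 0.31 (SE) that was −1.07 in replicate 1 and −0.46 in replicates 2 and 3.

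Pik3ip1 encodes a membrane protein that binds PI3 kinase and lowers its activity. It read 8.42, 8.79 and 8.67 in Post-24hr arrays against 9.57, 9.58 and 9.65 in End arrays. The End arrays were nearly equal, and the difference between groups was −0.97 ± 0.12 (SE), or 1.96-fold. It was −1.14 in replicate 1 and −0.89 in replicates 2 and 3, with a limma adjusted p of 0.215 in the 9-array fit and 0.0369 with 12 arrays and replicate 1 set apart.

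Pdk4, a kinase that shuts pyruvate dehydrogenase during fasting, read 8.63, 7.64 and 7.49 in Post-24hr arrays against 9.59, 8.54 and 8.55 in End arrays. The groups overlap because replicate 1 was higher than the others in both, yet the 3 pair differences were −0.96, −0.89 and −1.05. Bcl6, a transcriptional repressor, read 9.27, 9.29 and 9.02 in Post-24hr arrays and 10.10, 9.94 and 9.81 in End arrays, a difference of −0.76 ± 0.18 (SE). Ddit4, which restrains the growth kinase complex mTORC1, read 10.33, 10.15 and 10.37 against 11.10, 10.95 and 10.79 in End arrays, a difference of −0.67 ± 0.17 (SE). Neither of these 2 genes had overlapping groups. Ccng2, an atypical cyclin linked to cell cycle arrest, averaged 9.40 ± 0.56 in Post-24hr and 9.97 ± 0.20 in End (SD, n = 3) and also lay apart.

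The FoxO factors themselves differed less. Foxo1 had a difference of −0.30 ± 0.10 (SE) and Foxo4 one of −0.20 ± 0.10, both with groups apart, and Foxo3 had one of −0.14 ± 0.16 with overlapping groups. Sesn3, a stress protein that restrains mTORC1, had a difference of −0.32 ± 0.25 with groups apart. The remaining members were not all lower. Txnip, which limits glucose uptake and binds thioredoxin, read 10.95, 11.65 and 11.89 in Post-24hr arrays against 11.42, 10.40 and 10.70 in End arrays. It was lower by −0.47 in the replicate 1 pair and higher by 1.22 in replicates 2 and 3, so its mean difference of 0.66 ± 0.42 (SE) has no single direction. Cited2, a coactivator-binding protein, was higher in every pair with a difference of 0.15 ± 0.14, and Klf15, Bnip3 and Insr differed by 0.11, 0.04 and −0.14. Trim63 and Irs2, the other list members, had no row with a single symbol.

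**Figure D1:**
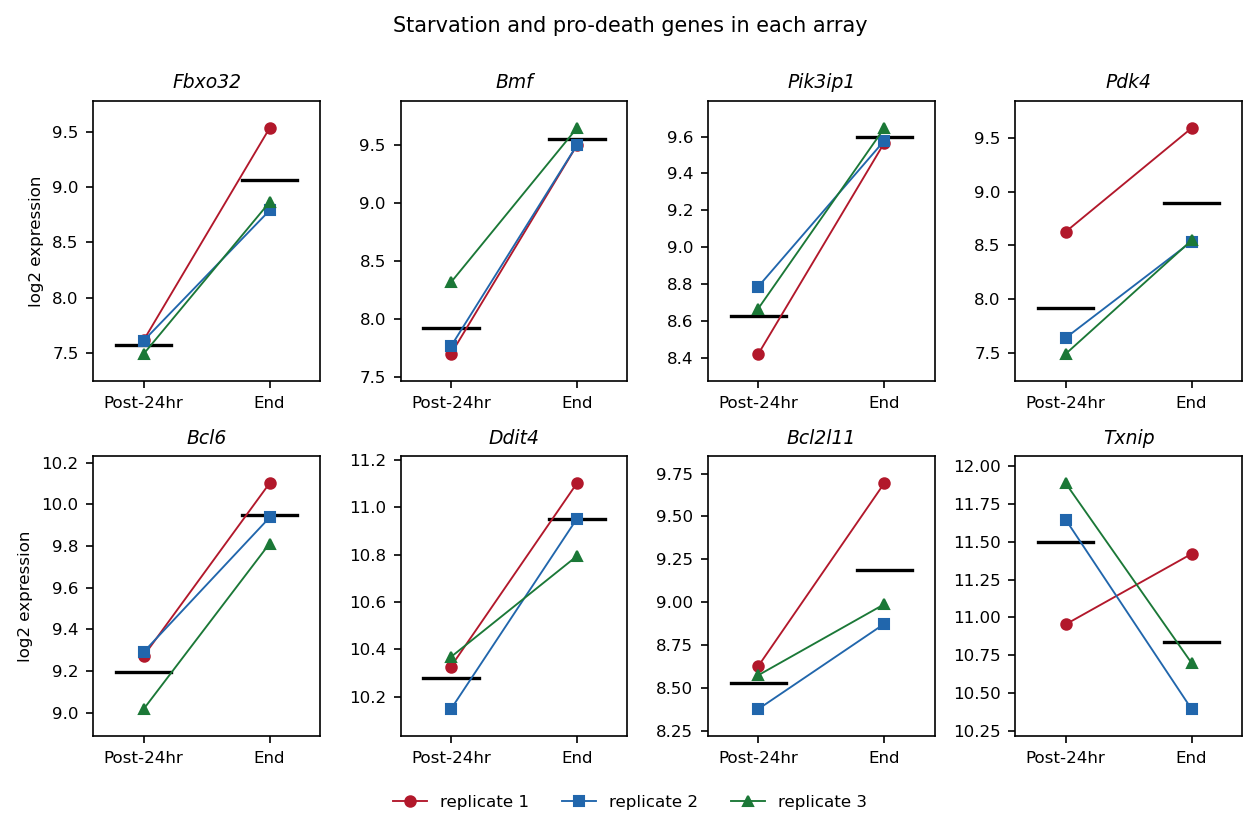
Log2 expression of 8 genes in each array, Post-24hr on the left and End on the right of each panel; points are arrays, lines join arrays of the same replicate number, and black bars are means of 3. In Fbxo32, Bmf, Pik3ip1, Bcl6, Ddit4 and Bcl2l11 every Post-24hr point lies below every End point, in Pdk4 each line climbs to End but the points overlap, and in Txnip the replicate 1 line runs against the other two.

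Most immediate early transcription factors read lower in recovered cells than at the end of shear. Of 23 measured members, 17 had a lower mean and 6 a higher one. Of these, 9 lay apart downwards (39.1%, against 8.57% of all genes) and 0 upwards. In every pair 13 were lower (56.5%, against 23.6%) and 3 higher (13%, near the 14.1% of all genes). The median difference was −0.26, with −0.35 in replicate 1 and −0.23 in replicates 2 and 3. Replicates 2 and 3 were uneven, with medians of −0.40 and −0.04, against −0.06 and −0.01 over all genes. None of the 23 passed in the 9-array limma fit, and the lowest adjusted p in the replicate-block fit was 0.30.

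The promoters of Fos and Egr2, the members with the most negative differences, are shown because serum response factor is known to control this family through a site called the CArG box. Both windows have the same length as above and lie on the plus strand of GRCm38.p6, at chr12:85473640-85473939 for Fos and chr10:67537619-67537918 for Egr2, 1 of 5 RefSeq starts of that gene. Capitals mark a match to the CArG box, whose letters are the same motif on both strands.
Fos: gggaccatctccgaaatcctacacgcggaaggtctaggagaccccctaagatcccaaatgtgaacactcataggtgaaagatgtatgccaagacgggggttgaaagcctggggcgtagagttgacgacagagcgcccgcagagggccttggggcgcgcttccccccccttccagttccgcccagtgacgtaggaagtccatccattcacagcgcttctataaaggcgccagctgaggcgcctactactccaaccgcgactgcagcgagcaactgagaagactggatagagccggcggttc
Egr2: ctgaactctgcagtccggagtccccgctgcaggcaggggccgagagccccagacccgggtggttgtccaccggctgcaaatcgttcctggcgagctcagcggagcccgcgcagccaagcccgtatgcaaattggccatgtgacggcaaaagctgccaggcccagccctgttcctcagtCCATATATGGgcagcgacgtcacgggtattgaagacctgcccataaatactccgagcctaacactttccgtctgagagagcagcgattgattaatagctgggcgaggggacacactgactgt
Of 17 members with a promoter in the table, 2 held a CArG box in a window, Egr2 and Srf, against 1.63% of all windows and 1.56% of measured genes. The Fos window held none, but the search does not cover sites further from the start, so it does not show that Fos lacks one. Egr1 had no promoter in the table and was not searched. The cAMP response element TGACGTCA was found in 2 members, Btg2 and Maff, against 1.79% of all windows and 2.72% of measured genes, and the FoxO letters in 1, Junb. The AP-1 letters TGACTCA and TGAGTCA were in 0 of 17, against 5.2% of all windows and 5.36% of measured genes.

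Fos, which pairs with Jun proteins to form AP-1, read 7.17, 8.77 and 9.11 in Post-24hr arrays against 9.67, 9.45 and 9.82 in End arrays. The groups lie apart, and the Post-24hr replicate 1 array was far below the other two. The difference was −1.29 ± 0.54 (SE), and it was −2.49 in replicate 1 and −0.69 in replicates 2 and 3. Its AP-1 partner Junb read 10.34, 10.70 and 10.75 in Post-24hr arrays against 11.52, 11.73 and 11.33 in End arrays. Junb was steadier than Fos, with pair differences of −1.17, −1.03 and −0.59 and a mean difference of −0.93 ± 0.20 (SE), or 1.91-fold. Jun, a further AP-1 subunit, averaged 9.41 ± 0.66 in Post-24hr and 10.06 ± 0.04 in End (SD, n = 3), again with groups apart. Its difference was −0.65 over all 3 replicates and −0.26 in replicates 2 and 3.

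Egr2, a zinc finger factor of the Egr family, read 6.62, 8.84 and 8.73 in Post-24hr arrays against 8.56, 10.09 and 9.34 in End arrays. Each pair was lower, by −1.94, −1.25 and −0.61, although the End array of replicate 1 lay below 2 Post-24hr arrays. Egr3 had a difference of −0.82 ± 0.38 (SE), and Egr1, the family member most used as a marker of ERK activity, had one of only −0.15 ± 0.26 with pair differences of −0.41, −0.13 and 0.08. Among the orphan nuclear receptors of the Nr4a group, Nr4a3 had a difference of −0.95 ± 0.43 and Nr4a2 one of −0.58 ± 0.19, both with groups apart. Nr4a1 overlapped between groups, with a difference of −0.16 ± 0.57.

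The other members that lay apart downwards were Ier2 at −0.61, Klf10 at −0.51, Maff at −0.37 and Btg2 at −0.27. Myc, which drives growth and ribosome synthesis, differed in the other direction. It read 11.59, 10.16 and 10.16 in Post-24hr arrays against 11.08, 9.59 and 9.65 in End arrays. Replicate 1 was well above the others in both groups, so the groups overlap, while the pair differences were 0.51, 0.57 and 0.51. The mean difference was 0.53 ± 0.55 (SE), or 0.53 ± 0.10 with the replicate block, where the limma adjusted p was 0.30. Srf, the factor that binds the CArG box, was also higher in every pair, with a difference of 0.29 ± 0.19 (SE).

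MAP kinase feedback regulators differed in both directions. Sprouty and Spred proteins, which block signalling from receptor tyrosine kinases to ERK, read higher in recovered cells, while the phosphatase Dusp2 read lower. Of 16 measured members, 6 lay apart upwards (37.5%, against 3.31% of all genes) and 2 downwards (12.5%, against 8.57%). The median difference was 0.26, with 0.19 in replicate 1 and 0.27 in replicates 2 and 3. Without Post-24hr replicates 2 or 3 or End replicate 1, it was 0.12, 0.15 or 0.14. All 6 Sprouty and Spred genes measured were higher in every pair, and all but Spred1 lay apart.

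Spry1 read 10.93, 11.69 and 11.49 in Post-24hr arrays against 9.57, 10.84 and 10.52 in End arrays. Replicate 1 was the lowest array in each group, and the Post-24hr arrays all stood above the End arrays. The difference was 1.05 ± 0.51 (SE), or 2.08-fold, and the pair differences were 1.36, 0.84 and 0.96. Spry2 read 7.91, 7.95 and 8.13 against 7.26, 7.67 and 7.26 in End arrays, a difference of 0.60 ± 0.19. Spry4 had a difference of 0.51 ± 0.29 and was uneven among the pairs, with 0.61, 0.79 and 0.12.

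Spred2 read 9.68, 9.62 and 9.39 in Post-24hr arrays against 9.27, 8.80 and 8.63 in End arrays, a difference of 0.66 ± 0.17 (SE). Spred3 had a difference of 0.40 ± 0.13 and Spred1 one of 0.48 ± 0.31. In Spred1 nearly all of the difference lay in replicates 2 and 3, at 0.71, with 0.02 in replicate 1. Dusp8, a phosphatase of the stress-activated kinases, was the sixth gene apart upwards, with nearly equal pair differences of 0.35, 0.38 and 0.36.

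Dusp2, a nuclear phosphatase that removes phosphate from ERK and is itself an early response gene, read 6.56, 6.46 and 6.68 in Post-24hr arrays against 8.12, 7.82 and 7.25 in End arrays. The Post-24hr arrays were close together and all below End, a difference of −1.16 ± 0.21 (SE) or 2.24-fold. Ier3, an early response gene that modulates ERK signalling, lay apart downwards at −0.40 ± 0.17. The remaining phosphatases had no common direction, with Dusp1 at 0.28, Dusp6 at 0.24, Dusp16 at 0.03, Dusp14 at −0.11, Dusp10 at −0.24 and Dusp4 at −0.40, and all of these overlapped between groups. Of 14 members with a RefSeq promoter, 3 held the cAMP response element, Dusp1, Dusp8 and Errfi1, against the shares of windows and genes given above.

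**Figure D2:**
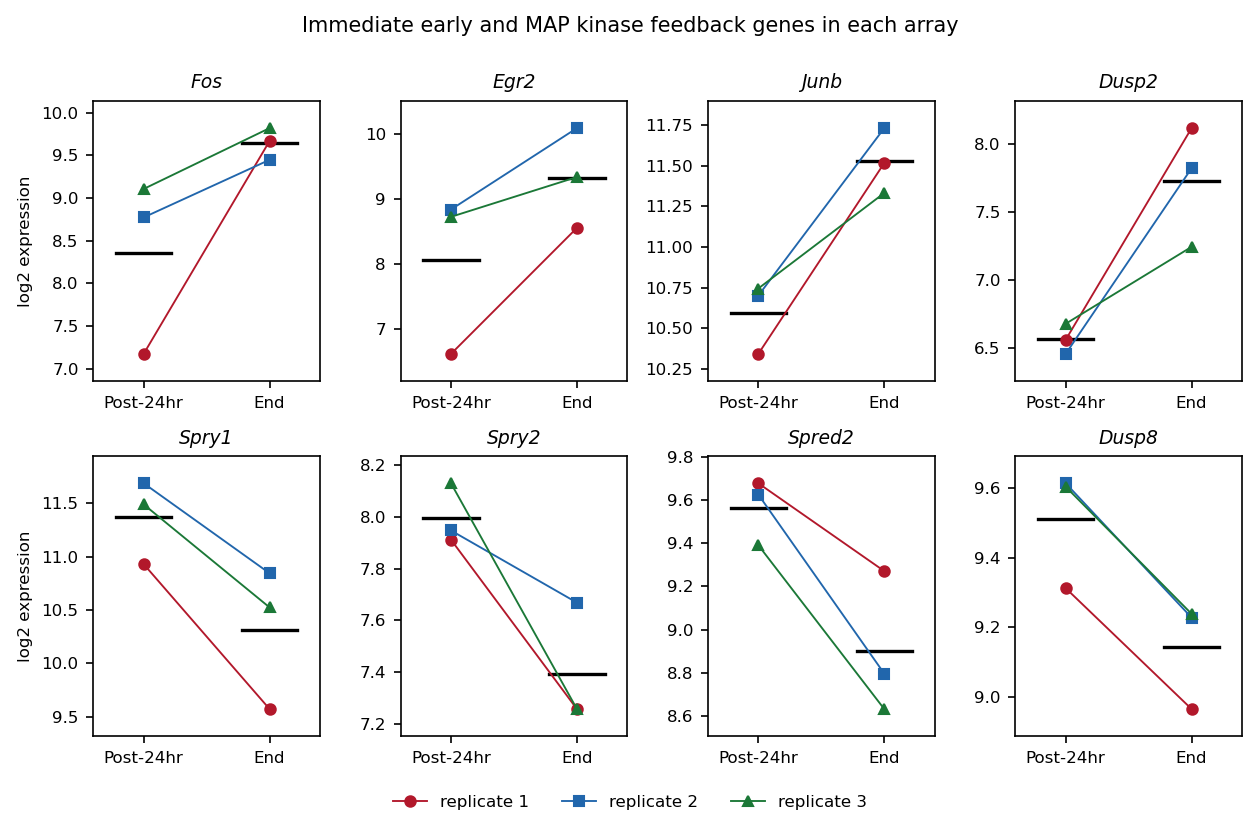
Log2 expression of 4 genes that read lower in recovered cells (top row) and 4 that read higher (bottom row), Post-24hr on the left and End on the right; points are arrays, lines join the same replicate number, black bars are means of 3. All lines climb towards End in the top row and drop towards End in the bottom row, and replicate 1 is the lowest of the 3 Post-24hr arrays for Fos, Egr2, Junb and Spry1.

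Genes of TGF-β and activin signalling read mostly lower, with the activin subunit gene as the main exception. TGF-β family ligands signal through paired receptors and Smad proteins, and the inhibitory Smads and Pmepa1 are induced by the pathway and damp it. Of 25 measured members, 18 had a lower mean, 7 lay apart downwards (28%, against 8.57% of all genes) and 1 upwards (4%, against 3.31%), and 12 were lower in every pair (48%, against 23.6%) against 2 higher in every pair. Markers of mesangial cells, pericytes and fibroblasts differed by a similar amount, with a median of −0.13 over 12 genes, 10 lower means and 6 genes lower in every pair (50%), and their part in this was not tested. The median difference was −0.11, with −0.17 in replicate 1 and −0.09 in replicates 2 and 3.

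Among the ligands, Inhba, which encodes the subunit of activin A, read 10.29, 9.35 and 9.23 in Post-24hr arrays against 8.72, 8.77 and 8.59 in End arrays. All Post-24hr arrays lay above End, and replicate 1 stood well above the other two. The difference was 0.93 ± 0.28 (SE), or 1.91-fold, with 1.57 in replicate 1 and 0.61 in replicates 2 and 3. Tgfb1, Tgfb2 and Tgfb3 had differences of −0.21, 0.17 and −0.13, with overlapping groups. Among the receptors, Tgfbr1 at −0.37 and Acvr2b at −0.32 lay apart downwards, while Tgfbr2 and Acvr1b differed by 0.03 and 0.04.

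Of the Smad proteins that carry the signal, Smad3 lay apart downwards at −0.29 ± 0.14 (SE), and Smad2 was higher in every pair at 0.18 ± 0.12. The feedback inhibitors read lower. Pmepa1, which traps receptor-activated Smads, read 11.11, 11.60 and 11.42 in Post-24hr arrays against 12.04, 12.53 and 12.04 in End arrays. Its groups lie apart with pair differences of −0.93, −0.93 and −0.62, and the mean difference was −0.83 ± 0.18 or 1.77-fold. Smad6 and Smad7, the inhibitory Smads, lay apart at −0.40 ± 0.11 and −0.38 ± 0.13, and the corepressor Ski at −0.17 ± 0.13. The Id genes, targets of the BMP branch, overlapped between groups, with Id1 at 0.15, Id2 at −0.03 and Id3 at 0.26.

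Lef1, Tcf7l1 and Tcf7l2, DNA-binding partners of β-catenin, read lower, while most other Wnt pathway genes differed little. β-catenin, encoded by Ctnnb1, carries the Wnt signal to the nucleus and acts there through such factors. Of 24 measured genes, 4 lay apart downwards (16.7%, against 8.57% of all genes) and 0 upwards. Those 4 were Lef1, Tcf7l1, Tcf7l2 and Ctnnb1 itself. The median difference over the list was −0.07, with −0.09 in replicate 1 and −0.07 in replicates 2 and 3. Without Post-24hr replicate 1 it was 0.01.

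Lef1 read 7.05, 6.95 and 7.22 in Post-24hr arrays against 7.90, 7.67 and 7.67 in End arrays, a difference of −0.67 ± 0.13 (SE) or 1.59-fold. The highest Post-24hr array was well below the lowest End array. Tcf7l2 read 10.05, 10.09 and 10.06 against 10.57, 10.34 and 10.42 in End arrays, a difference of −0.38 ± 0.10. Tcf7l1 had a difference of −0.42 ± 0.12 and Ctnnb1 one of −0.17 ± 0.10. The pathway's feedback target Axin2 had pair differences of −0.26, −0.22 and −0.25 with overlapping groups. The secreted antagonist Sfrp1 was lower in every pair, by −1.09 in replicate 1 and −0.36 in replicates 2 and 3. Ccnd1, the cyclin D1 gene, was higher in every pair at 0.34 ± 0.32.

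Growth arrest and p53 target genes differed in opposite directions within one family. The p53 protein halts the cell cycle after damage, and the large T antigen that this line carries is known to bind it. Of 20 measured members, 3 lay apart upwards (15%, against 3.31% of all genes) and 3 downwards (15%, against 8.57%). In every pair 10 were higher (50%, against 14.1%) and 5 lower (25%, near the 23.6% of all genes). The median difference was 0.07, with 0.32 in replicate 1 and 0.04 in replicates 2 and 3, and it was −0.05 without Post-24hr replicate 1.

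The 3 genes apart upwards were Plk2, Zmat3 and Aen. Plk2, a polo-like kinase, read 11.13, 11.29 and 11.29 in Post-24hr arrays against 10.69, 10.73 and 10.89 in End arrays. Its arrays were tight in both groups, with a difference of 0.47 ± 0.11 (SE). Zmat3, an RNA-binding p53 target, had a difference of 0.47 ± 0.17 and the nuclease gene Aen one of 0.35 ± 0.14. Cdkn1a, the cyclin-dependent kinase inhibitor p21, had one of 0.21 ± 0.17, higher in every pair with overlapping groups.

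The 3 Gadd45 stress sensors did not share a direction. Gadd45a read 11.62, 9.37 and 9.42 in Post-24hr arrays against 10.59, 8.99 and 8.73 in End arrays. It was higher in each pair, by 1.03, 0.38 and 0.69, with replicate 1 far above the rest in both groups. Gadd45b read 10.36, 10.57 and 10.49 against 10.89, 11.54 and 11.26 in End arrays, a difference of −0.76 ± 0.17 (SE) with groups apart. Gadd45g was lower in every pair, by −0.89, −0.82 and −0.35. Sesn1, a stress-induced inhibitor of mTORC1, and the antiproliferative gene Btg1 were the other members apart downwards, at −0.61 ± 0.15 and −0.43 ± 0.11.

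Mitotic genes were the clearest case of replicates that disagreed. These genes peak as a cell divides, and differentiated podocytes divide rarely. All 21 measured G2 and mitosis genes had a higher mean in Post-24hr, with a median difference of 0.47. Yet 0 lay apart, and 3 were higher in every pair (14.3%, near the 14.1% of all genes). In replicate 1, 18 of 21 were lower, with a median of −0.33. In replicates 2 and 3 all 21 were higher in both pairs, with medians of 1.32 and 0.49. The median over all arrays was 1.20 without Post-24hr replicate 1 and 0.07 without Post-24hr replicate 2.

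Mki67, which encodes the proliferation marker Ki-67, read 5.29, 8.21 and 7.74 in Post-24hr arrays against 5.50, 6.55 and 6.82 in End arrays. The 2 replicate 1 arrays were the lowest of the 6, and replicates 2 and 3 were higher in Post-24hr by 1.67 and 0.92. Ccna2, the cyclin A2 gene, read 7.85, 10.96 and 10.94 against 8.46, 9.50 and 10.36 in End arrays, with the same split. Tpx2, Ube2c and Ect2, which act in the spindle, in protein breakdown at anaphase and in cytokinesis, were the members higher in every pair, at 0.68 ± 0.28, 0.61 ± 0.40 and 0.67 ± 0.49 (SE). The list's median level was 7.50 in Post-24hr replicate 1, 9.67 and 9.48 in Post-24hr replicates 2 and 3, 7.92 in End replicate 1, and 8.43 and 9.04 in End replicates 2 and 3.

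Genes of DNA replication showed part of this split. Their median difference was −0.12 over 22 measured members, with −0.47 in replicate 1, 0.25 in replicate 2 and −0.05 in replicate 3. Of them 1 lay apart downwards (4.55%, against 8.57% of all genes). The labels give no culture or batch for the replicate numbers.

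**Figure D3:**
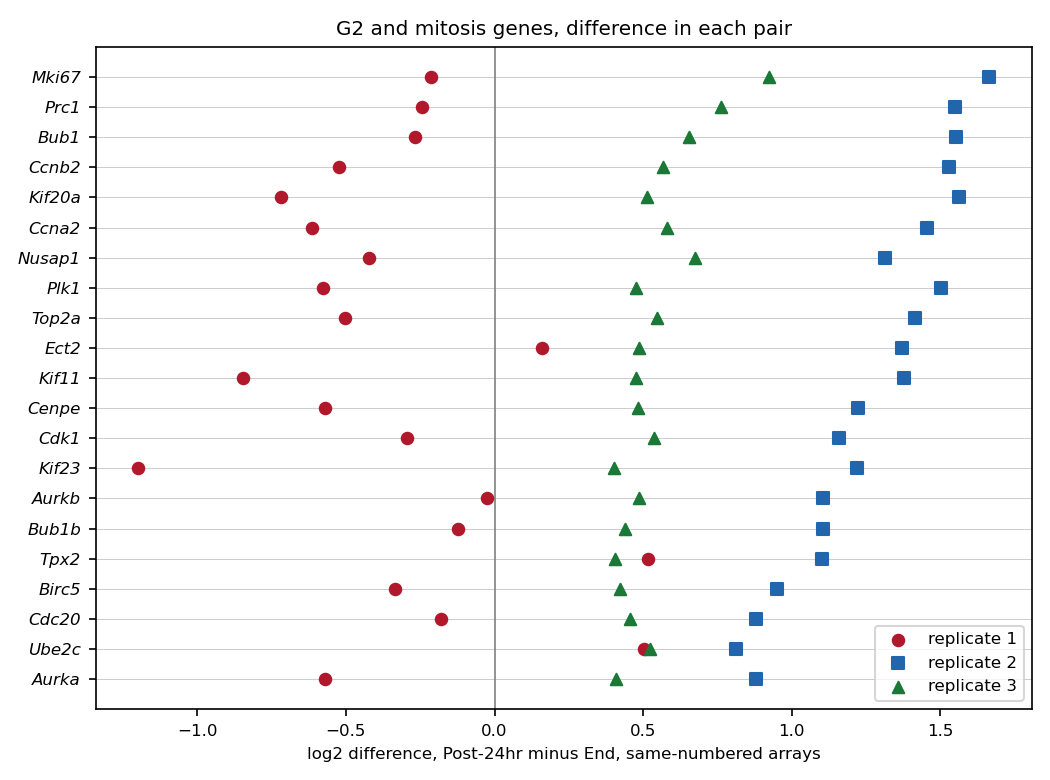
Log2 difference Post-24hr minus End within each same-numbered pair of arrays, for the 21 measured G2 and mitosis genes, ordered by the mean of replicates 2 and 3. Replicate 2 and 3 points all lie to the right of 0, while 18 of 21 replicate 1 points lie to the left.

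A few lists held many small differences of one sign. Targets of ATF4, the factor that raises amino acid synthesis and import under stress, were higher in every pair for 14 of 19 measured genes (73.7%, against 14.1% of all genes) and lower in every pair for 1. Their median difference was 0.23, with 0.28 in replicate 1 and 0.24 in replicates 2 and 3, and 0 lay apart. Leaving out Post-24hr replicate 1 brought that median to 0.0055, and leaving out End replicate 1 brought it to 0.50.

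Psat1, an enzyme of serine synthesis, read 10.90, 10.40 and 10.10 in Post-24hr arrays against 10.18, 9.55 and 9.88 in End arrays, a difference of 0.60 ± 0.29 (SE). Mthfd2, a mitochondrial folate enzyme, had pair differences of 0.47, 0.25 and 0.41, and Asns, asparagine synthetase, had 0.22, 0.31 and 0.27. Ddit3, which encodes the stress factor CHOP, differed by 0.38 in replicate 1 and by −0.01 in replicates 2 and 3. Genes of ribosome assembly in the nucleolus had a smaller median of 0.10 over 20 members. In every pair 12 were higher (60%, against 14.1% of all genes) and 1 was lower (5%, against 23.6%). That median was 0.07 in replicate 1 and 0.11 in replicates 2 and 3. It was −0.03 without Post-24hr replicate 1, in a fit with no replicate term that kept replicate 1 in End.

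Gnl3, which encodes nucleostemin, a nucleolar GTP-binding protein, had the greatest difference of that list. It read 10.77, 10.01 and 9.84 in Post-24hr arrays against 10.32, 9.26 and 9.20 in End arrays. The pair differences were 0.45, 0.75 and 0.64, and the mean difference was 0.61 ± 0.39 (SE), or 0.61 ± 0.09 with the replicate block, at a limma adjusted p of 0.221 there. Collagens, laminins and other basement membrane genes leaned the other way, with a median of −0.12 over 21 members. In every pair 11 were lower (52.4%, against 23.6% of all genes) and 0 higher. The median was −0.06 in replicate 1 and −0.13 in replicates 2 and 3. It was −0.01 without Post-24hr replicate 1, again with replicate 1 kept in End. The fibroblast and mesangial markers, which share Col1a1 with this list, had the like median of −0.13 given above, and their part was not tested here either. Their differences were small, as in Col4a4, a chain of the collagen network of the glomerular basement membrane, with −0.19, −0.21 and −0.20 in the 3 pairs.

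**Figure D4:**
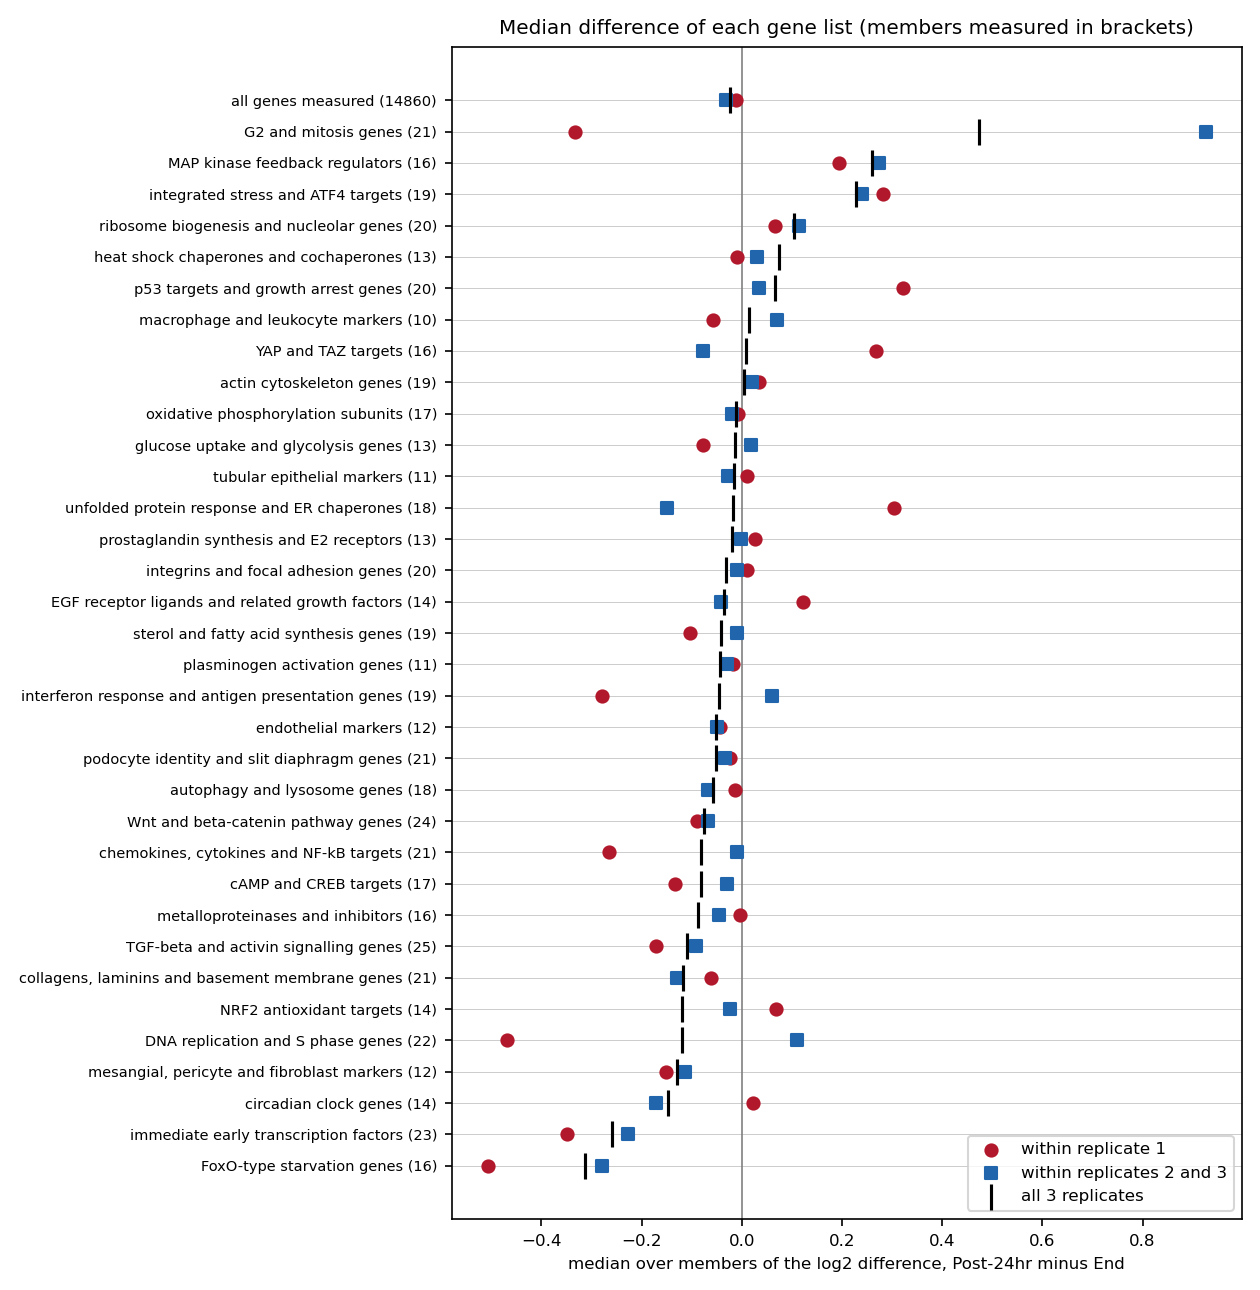
Median log2 difference Post-24hr minus End over the measured members of each gene list, with all 14860 genes in the top row; black ticks are all 3 replicates, red circles replicate 1 and blue squares replicates 2 and 3. Starvation genes (−0.31) and immediate early factors (−0.26) lie to the left in both sets of replicates. MAP kinase feedback regulators (0.26) lie to the right in both. In replicate 3 alone the immediate early median was −0.04. Mitosis genes read −0.33 in replicate 1 and 0.93 in replicates 2 and 3.

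Prostaglandin and inflammatory genes, which respond to flow in podocytes and other cells, had no common shift between the 2 harvests. Ptgs2, which encodes the inducible cyclooxygenase COX-2, read 10.51, 9.37 and 8.83 in Post-24hr arrays against 10.48, 11.002 and 9.55 in End arrays. The replicate 1 pair was level, at 0.03, while replicates 2 and 3 were lower by −1.63 and −0.72. Of 13 measured prostaglandin genes, 1 lay apart upwards and 1 downwards (7.69% each, against 3.31% and 8.57% of all genes). The E2 receptor gene Ptger2 lay apart upwards at 0.20 ± 0.15 (SE), on a dim row that averaged 5.49 in Post-24hr and 5.29 in End. Ptger1 lay apart downwards at −0.41 ± 0.16. Ptger4 and the synthase gene Ptges overlapped between groups, at −0.09 and −0.02.

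Of 21 chemokine, cytokine and NF-κB target genes, 2 lay apart downwards (9.52%, near the 8.57% of all genes) and 0 upwards. The 2 were Nfkbia, the inhibitor of NF-κB that NF-κB itself induces, at −0.54 ± 0.28 (SE), and the chemokine gene Cxcl2 at −0.43 ± 0.16. In replicates 2 and 3 Nfkbia differed by −0.26 and Cxcl2 by −0.49. The chemokine gene Cxcl10 was lower in every pair, by −2.03 in replicate 1 and −0.35 in replicates 2 and 3. Ccl2, Ccl7, Ccl20 and Cxcl1 were lower in replicate 1, at −0.93, −0.24, −0.63 and −0.51, and higher in replicates 2 and 3, at 0.67, 0.56, 0.50 and 0.35. Their mean differences were 0.14, 0.30, 0.12 and 0.07.

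Podocyte genes themselves differed little between the harvests. The median difference over 21 measured podocyte genes was −0.05, with −0.02 in replicate 1 and −0.03 in replicates 2 and 3. Without Post-24hr replicate 1 it was 0.06. Of these genes 1 lay apart upwards (4.76%, against 3.31% of all genes) and 4 downwards (19%, against 8.57%). Foxc2, a podocyte transcription factor, read 7.54, 7.97 and 7.90 in Post-24hr arrays against 8.30, 8.28 and 8.08 in End arrays, a difference of −0.42 ± 0.14 (SE). Myo1e, a motor protein of the foot process, was apart at −0.27 ± 0.12, Inf2 at −0.11 ± 0.08 and Wt1, the transcription factor that marks podocytes, at −0.09 ± 0.10. Tcf21, which lay apart upwards, had a difference of 0.19 ± 0.14.

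As a check of the label, the array signals of this list ranged widely. Cd2ap and Actn4, scaffold and actin-linking proteins of the foot process, read 12.50 ± 0.07 and 13.14 ± 0.09 in Post-24hr and 12.42 ± 0.15 and 13.09 ± 0.15 in End (SD, n = 3). Nphs1, which encodes the slit diaphragm protein nephrin, read 6.61 ± 0.06 in Post-24hr and 6.57 ± 0.02 in End. Ptpro and Trpc6 read 4.67 and 4.81 in Post-24hr and 4.67 and 4.86 in End, below the 25th percentile of all rows' mean levels at 5.27, and without detection calls it is not known whether such rows lie above background. Median levels of macrophage and leukocyte markers ran from 5.42 to 5.56 over the 6 arrays, of endothelial markers from 5.76 to 5.94, of mesangial and fibroblast markers from 6.10 to 6.31 and of tubular markers from 6.46 to 6.55. The 4 marker lists had 0, 1, 1 and 0 genes apart downwards in that order, or 0%, 8.33%, 8.33% and 0%, against 8.57% of all genes. Upwards there were 0, against 3.31% of all genes. Their median differences were 0.01, −0.05, −0.13 and −0.01.

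The naming rule took the 12 genes in each direction with the smallest p in the replicate-block fit, a choice that favours genes whose pairs agree. Among the 12 higher ones, Steap1, a metalloreductase family member, read 11.44, 11.23 and 11.19 in Post-24hr arrays against 10.76, 10.61 and 10.59 in End arrays. Its groups lie apart with a difference of 0.63 ± 0.10 (SE) and a limma adjusted p of 0.367 in the 9-array fit and 0.0492 with 12 arrays and replicate 1 set apart. Cish, an inhibitor of cytokine receptor signalling through STAT5, had pair differences of 0.85, 0.64 and 0.72 with overlapping groups. Rnd3, which loosens actin stress fibres, read 11.02, 11.28 and 11.06 against 10.37, 10.77 and 10.60 in End arrays. It lay apart with a difference of 0.54 ± 0.14, and so did the serpin gene Serpinb6b at 0.69 ± 0.13 and the RNA-binding repressor Myef2 at 0.41 ± 0.10. The others were Stk40 at 0.65, Nudcd1 at 0.49, the acetyltransferase subunit gene Naa25 at 0.47 and the noncoding RNA Snhg16 at 0.46, together with Plk2, Gnl3 and Myc, which are described above.

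Among the 12 lower ones, Cirbp, an RNA-binding protein induced by cold and other stress, read 8.71, 8.95 and 8.94 in Post-24hr arrays against 9.49, 9.76 and 9.60 in End arrays. The groups lie apart with a difference of −0.75 ± 0.11 (SE). Mt1, a metallothionein that binds zinc and copper, read 12.02, 10.33 and 10.86 against 13.20, 11.34 and 11.60 in End arrays. Replicate 1 was high in both groups, so the groups overlap, and the pair differences were −1.18, −1.01 and −0.74. The survival kinase gene Pim1 read 9.60, 8.03 and 8.003 against 10.49, 9.34 and 9.04 in End arrays, with pair differences of −0.90, −1.31 and −1.04. Vdr, the vitamin D receptor, had pair differences of −0.83, −0.77 and −0.67 with overlapping groups.

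Efna1, the ligand ephrin-A1, read 9.85, 9.23 and 9.43 in Post-24hr arrays against 10.69, 10.20 and 10.11 in End arrays, and its groups lie apart at −0.84 ± 0.26 (SE). Sox8, a transcription factor, read 8.45, 8.88 and 9.01 against 9.21, 9.87 and 9.71, a difference of −0.81 ± 0.23 and 0.0452 as the limma adjusted p with 12 arrays and replicate 1 set apart. Runx1t1, a transcriptional corepressor, lay apart at −0.67 ± 0.13, with pair differences of −0.67, −0.69 and −0.63. The metalloproteinase gene Adamts16 and Otulinl were at −0.72 and −0.56 with overlapping groups, and Fbxo32, Bmf and Pik3ip1 complete this set. None of the 24 genes passed in the replicate-block fit, where their limma adjusted p ran from 0.187 to 0.30.

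The remaining rows that passed only with 12 arrays and replicate 1 set apart were Zbed5 at −1.08 ± 0.16, Skida1 at −0.67 ± 0.19, Mxi1 at −0.56 ± 0.13, Mtus1 at −0.49 ± 0.08 and Il4ra at −0.49 ± 0.08 (SE of the 9-array fit). With 12 arrays and replicate 1 set apart, their limma adjusted p was 0.0369, and 0.0407 for Mtus1. In the 9-array limma fit none passed, with adjusted p from 0.307 for Zbed5 to 0.743 for Skida1. All 5 had groups apart. Mxi1 encodes a partner of Max that opposes Myc, and Il4ra the receptor subunit for interleukin 4.

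The Post-2hr arrays show when part of these differences was already present. Fbxo32 averaged 9.06 at End, 7.97 at Post-2hr and 7.57 at Post-24hr, and Pik3ip1 averaged 9.60, 8.80 and 8.62 in the same order. Bmf averaged 9.55, 7.88 and 7.93 in that order, so its Post-2hr mean was level with Post-24hr. In these 3 genes the Post-2hr mean lay nearer to Post-24hr than to End. Mt1 averaged 12.04, 12.16 and 11.07, Pim1 9.63, 9.59 and 8.54, and Pmepa1 12.20, 12.54 and 11.38 at End, Post-2hr and Post-24hr. Their Post-2hr means lay near or above End. For Pim1 the replicates disagreed, from 10.49, 9.34 and 9.04 at End to 10.82, 9.01 and 8.94 at Post-2hr. Among higher genes, Cish averaged 9.80, 10.45 and 10.54, Spry1 10.31, 10.99 and 11.37, and Inhba 8.69, 9.49 and 9.62 over the 3 harvests, with most of each difference present at Post-2hr. These means share the End and Post-24hr arrays of the comparison above and carry no separate test.

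**Figure D5:**
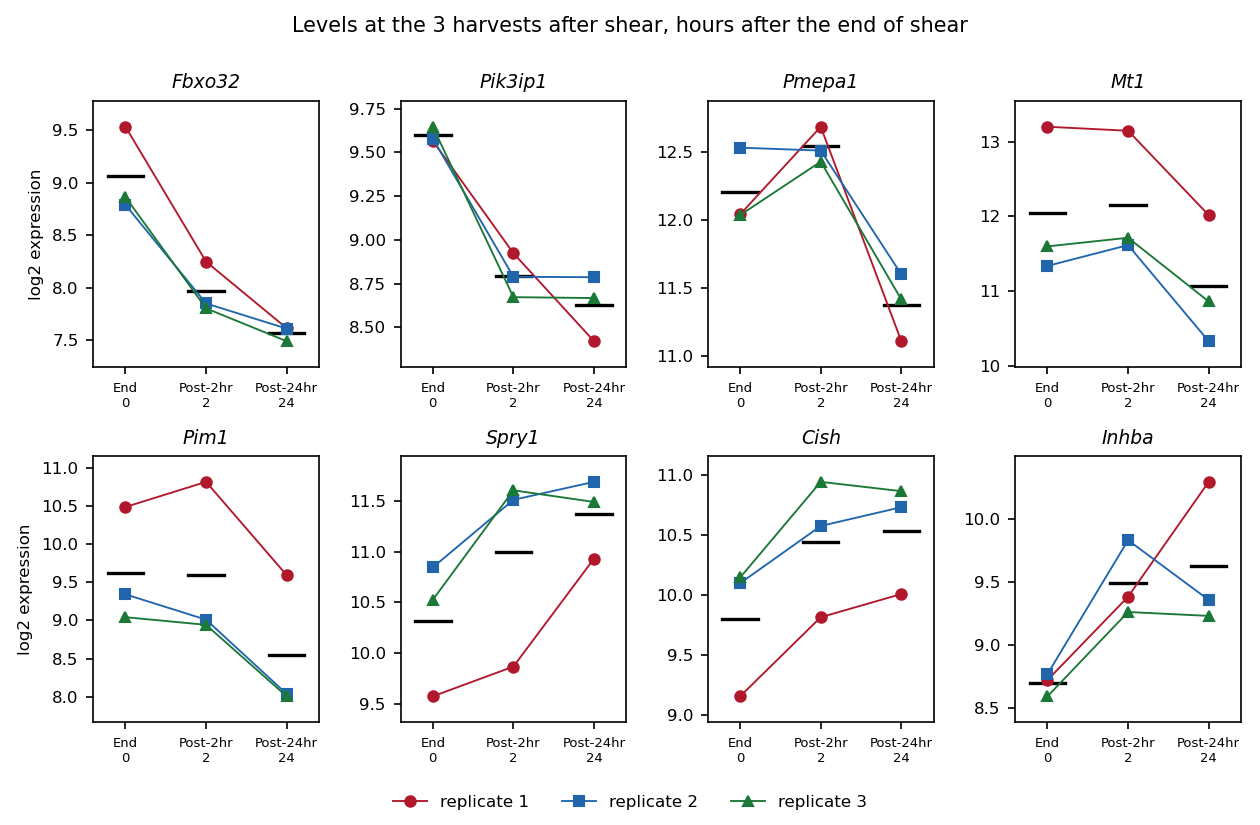
Log2 expression of 8 genes at the end of shear and 2 and 24 h after it; points are arrays, lines join the same replicate number, black bars are means of 3. Fbxo32 and Pik3ip1 drop mostly within the first 2 h. The means of Pmepa1, Mt1 and Pim1 are level or higher at 2 h and lower at 24 h, with Pim1 lower at 2 h in replicates 2 and 3. Spry1, Cish and Inhba are higher at 2 h than at the end of shear in every replicate.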

How the data were processed

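Total RNA of the cells was hybridised to 1-colour Affymetrix Mouse Exon 1.0 ST arrays. The deposited values are log2 gene-level signals, normalized by RMA with Partek software per the submitters' processing notes. Their versions and the annotation build were not given in the sources used here. The table held 23332 rows without missing values, and array medians of the 6 arrays ran from 6.998 to 7.084. The annotation gave 1 symbol to 14996 rows, several to 1019 and none to 7317. Of the named rows 14941 were in the RefSeq table, and a gene with several rows was taken from its brightest row, by mean over the 9 sheared arrays.

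The fit was limma 3.58.1 in R 4.3.3 on the 9 sheared arrays, with group means, moderated variance and Benjamini-Hochberg adjustment over all rows at 0.05, and was tested on simulated data. Alternatives were the replicate block, replicate 1 set apart, 6 or 12 arrays, centring, quantile normalization, level filters, array weights, no moderation and each array left out. Deviations from the group means correlated between same-numbered Post-24hr and End arrays at 0.522, 0.149 and 0.267, each over the 0.1 set for treating the numbers as pairs. Across numbers, Post-24hr 2 with End 3 gave 0.187 and Post-24hr 3 with End 2 gave 0.271, so the data set replicate 1 apart but do not tell 2 from 3. Replicate 1 and replicates 2 and 3 are also given separately.

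The members and the 34 gene lists were chosen with earlier results of these data known. Named genes were the 12 in each direction with the smallest replicate-block p, at a level of at least 5.27, and up to 2 extremes per list, together with the members that a sentence counts. Standard errors are those of the 9-array fit unless stated. Promoters come from RefSeq, build GRCm38.p6.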

Additional observations from a re-analysis of the deposited data

How the results depend on the processing

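At an adjusted p under 0.05 the comparison gave 0 rows higher and 0 rows lower, and each of the 9 fits that left out 1 sheared array also gave 0 to 0. Those 9 fits had no replicate term, so leaving out Post-24hr or End replicate 1 kept the replicate 1 level in only the other group. Same-numbered arrays of replicates 2 and 3 deviated together no more (0.149 and 0.267) than arrays of the other number did (0.187 and 0.271), so the pairing rests on replicate 1. The replicate block gave 0 higher and 0 lower, with 2501 rows at an unadjusted p under 0.05 against 1345 without it. The block changed no other call. With all 12 arrays and the replicate block 1 row was higher and 1 lower, and with all 12 arrays and replicate 1 set apart 3 were higher and 9 lower. These 2 fits estimate the spread from 3 more arrays, the Control ones. Without the replicate term 12 arrays gave 0 calls, with 1347 rows at an unadjusted p under 0.05. Depth has no counterpart on these arrays, and without detection calls the differences of rows near the 25th percentile of 5.27 may rest on background.

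Some differences changed direction, none of them called, and the cause was not tested. Within replicate 1 these were Bnip3 (−0.12), Ccl2 (−0.93), Ccl20 (−0.63), Ccl7 (−0.24), Ccna2 (−0.61), Cd2ap (−0.038), Cxcl1 (−0.51), Dusp1 (−0.16), Id1 (−0.051), Id3 (−0.27), Mki67 (−0.21), Tgfbr2 (−0.16) and Txnip (−0.47), which turned negative, and Dusp14 (0.24), Ptgs2 (0.027), Ptpro (0.082), Tgfb1 (0.092) and Trpc6 (0.025), which turned positive. In replicates 2 and 3 alone they were Ddit3 (−0.0057), Hspa1a (−0.37), Klf15 (−0.23), Tgfb2 (−0.049), Id2 (0.13) and Ifit1 (0.40). With array weights they were Klf15 (−0.069), Id2 (0.063) and Ifit1 (0.15). Leaving out single arrays gave ranges that cross 0 for Actn4 (−0.035 to 0.10), Acvr1b (−0.0025 to 0.064), Bnip3 (−0.034 to 0.10), Ccl2 (−0.46 to 1.10), Ccl20 (−0.30 to 0.75), Ccna2 (−0.047 to 1.51), Cxcl1 (−0.12 to 0.43), Ddit3 (−0.76 to 0.88), Dusp10 (−0.43 to 0.013), Dusp14 (−0.27 to 0.0092), Dusp6 (−0.33 to 0.84), Egr1 (−0.25 to 0.0026), Errfi1 (−0.014 to 0.27), Gadd45a (−0.042 to 1.28), Hspa1a (−0.49 to 1.14), Id1 (−0.012 to 0.30), Id2 (−0.21 to 0.26), Ifit1 (−0.53 to 0.62), Klf15 (−0.29 to 0.31), Nr4a1 (−0.62 to 0.42), Ptger4 (−0.36 to 0.27), Ptges (−0.081 to 0.044), Ptpro (−0.036 to 0.022), Tgfb2 (−0.14 to 0.33) and Tgfbr2 (−0.12 to 0.27).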

Other observations

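Genes of autophagy, the clock and cell adhesion also held members whose groups lie apart. Ulk1, the kinase that starts autophagy, read 10.04, 10.20 and 10.19 in Post-24hr arrays against 10.48, 10.57 and 10.52 in End arrays, a difference of −0.38 ± 0.11 (SE of the 9-array limma fit, as for all values here). Map1lc3b and Gabarapl1, which encode proteins of the autophagosome membrane, also lay apart downwards at −0.36 ± 0.13 and −0.28 ± 0.10. Over 18 measured autophagy and lysosome genes, 3 lay apart downwards (16.7%, against 8.57% of all genes) and 0 upwards, and 9 were lower in every pair (50%, against 23.6%). Among 14 clock genes, Nr1d2, a repressor of the clock, and the clock output factor Tef lay apart downwards at −0.49 ± 0.20 and −0.35 ± 0.10. They are 14.3% of the list, against 8.57% of all genes. Bhlhe40, a further clock repressor, was lower in every pair, by −1.18, −0.93 and −0.73. Among 20 integrin and focal adhesion genes, the scaffold gene Bcar1 and the fibronectin receptor gene Itga5 lay apart upwards (10%, against 3.31% of all genes) at 0.36 ± 0.17 and 0.23 ± 0.14, and 0 lay apart downwards. Pde4b, which breaks down cAMP, was apart upwards at 0.65 ± 0.15, and Ppargc1a, a coactivator of mitochondrial genes, apart downwards at −0.66 ± 0.21. Both are on a list of 17 measured cAMP and CREB targets. Of that list 2 lay apart upwards (11.8%, against 3.31% of all genes) and 3 downwards (17.6%, against 8.57%). Insig1, which restrains sterol synthesis, was the only 1 of 19 sterol and fatty acid genes to lie apart, at −0.59 ± 0.22, a share of 5.26% that is below the 8.57% of all genes.

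Partners of the Myc network were looked up after the values of Myc and Mxi1 had been seen. Mxd1, which competes with Myc for Max, averaged 9.53 in Post-24hr and 10.55 in End, a difference of −1.02 ± 0.17 that was −1.06 in replicate 1 and −1.003 in replicates 2 and 3. Its limma adjusted p was 0.382 in the 9-array fit. Mnt, a related repressor, differed by −0.22 ± 0.12 and Max itself by −0.08 ± 0.10. Mxd4 differed by −0.43 ± 0.28, with −1.03 in replicate 1 and −0.13 in replicates 2 and 3.

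The heat shock gene Hspa1a and the interferon-induced gene Ifit1 differed between replicate 1 and the others. Over 13 measured heat shock genes the median difference was −0.01 in replicate 1 and 0.03 in replicates 2 and 3. Over 19 measured interferon and antigen presentation genes it was −0.28 and 0.06. Hspa1a, an inducible HSP70 chaperone gene, read 9.69, 6.43 and 6.89 in Post-24hr arrays against 7.38, 7.09 and 6.97 in End arrays, so the replicate 1 pair differed by 2.30 and replicates 2 and 3 by −0.37. The cochaperone genes Bag3 and Chordc1 lay apart at −0.52 ± 0.14 and 0.51 ± 0.12 with 1 sign in every pair. Of the 13 heat shock genes, 1 lay apart upwards (7.69%, against 3.31% of all genes) and 2 downwards (15.4%, against 8.57%). The interferon-induced gene Ifit1 differed by −1.04 in replicate 1 and by 0.40 in replicates 2 and 3.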
